A study of Homo sapiens with 16 samples.

Results

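Histone cluster genes encode the linker histone H1 and the core histones H2A, H2B, H3 and H4. They were taken as the genes of the deposited expression table whose name starts with HIST1H, HIST2H, HIST3H or HIST4H. The rule found 82 names, and the 10 that carry PS after the histone type, a mark of pseudogenes, were left out, which gave 72 members of 40888 genes in the table. Of these, 66 are typed as protein coding in the table and 6 as pseudogenes that the name rule does not catch. H1 has 6 members, H2A 15, H2B 23, H3 14 and H4 14. The HIST1 cluster on chromosome 6 holds 51 of them, HIST2 on chromosome 1 holds 16, HIST3 on chromosome 1 holds 4, and HIST4H4 lies alone on chromosome 12.

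Polyadenylated RNA was sequenced from VCaP, an established prostate cancer cell line that responds to androgens. The study set VCaP_ctrl (Vc), kept for 4 months with ethanol, beside VCaP_enz (Ver), kept for 4 months with 1 µM enzalutamide, an antiandrogen. Cells of both lines were starved for at least 48 h in medium without phenol red and with stripped serum, then received for 24 h no addition (control), 1 nM DHT (dihydrotestosterone, an androgen), 1 µM enzalutamide, or both compounds. Each of the 8 groups has 2 libraries. Each line was derived once, and nothing in the labels says that the 2 libraries of a group came from separate cultures, so the p-values measure the spread between these libraries, which may be technical. The labels give the Vc libraries one sequencing lane and the Ver libraries another, so lane and line cannot be told apart. Gene counts per library ran from 8155244 to 13273523, and the members took between 0.0778% and 0.143% of them. The prostate luminal marker HOXB13 was present in every library (lowest 290 CPM, gene counts scaled to library size), and PTPRC, CD3E and CD68 of blood cells stayed at or under 0.642 CPM. The stromal gene LUM ranged from 0.328 to 81.1 CPM over the libraries, with 3938 counts in all, while COL3A1 and DCN stayed at or under 0.46 CPM. The part of such cells in the results was not tested.

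DNA replication needs new histones, and most cluster genes are switched on together as cells enter S phase through NPAT and factors that read each promoter type. Their transcripts usually carry no intron and no poly(A) tail: the end is cut just after a short stem loop that is bound by SLBP. Some cluster genes also make polyadenylated transcripts, mostly outside S phase or in differentiated cells, while replacement histones such as H1F0 and H3F3B are made from ordinary polyadenylated mRNA throughout the cycle. A library of polyadenylated RNA holds the first kind of transcript only in part, so a level here is that of the RNA kept by the selection.

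The stem loop is printed because transcripts without a poly(A) tail end just after it. It was found in the GENCODE 29 models of 30 of the 71 members that have a model there, in 4 forms, with the 4 loop bases in capitals:

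Form of 18 members, HIST2H2BE and HIST3H2BB among them: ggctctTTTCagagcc
Form of 5 members, HIST1H2BC and HIST1H2BD among them: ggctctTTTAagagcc
Form of 5 members, all of type H4, HIST4H4 and HIST1H4H among them: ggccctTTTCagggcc
Form of 2 members, HIST1H2AG and HIST2H2BD: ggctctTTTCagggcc

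The form of HIST4H4 differs from the commonest one within the stem. The search pattern was wider than these 4 strings, with alternative letters allowed at some bases. Only 7 other genes (0.0119% of 58676) matched it in a transcript. A model that lacks the string need not come from a gene that lacks it, since a model can end before it. The models of 20 members run more than 100 bases past the stem loop, HIST1H2AC, HIST1H4H, HIST2H2BE, HIST3H2BB and HIST4H4 among them.

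RefSeq promoters (GRCh38.p14, from 250 bases before to 50 after the start) matched 61 of the 72 members. 3 are printed, in capitals where they match ATTTGCAT (the octamer that is known from H2B promoters), CCAAT or TATAAA on either strand, with neighbouring matches allowed to overlap: HIST2H2BE rose with DHT, HIST1H2BJ fell, and HIST4H4 fell furthest among the abundant members. HIST2H2BE is at chr1:149886633-149886932, HIST1H2BJ at chr6:27132746-27133045 and HIST4H4 at chr12:14771082-14771381, all on the minus strand.

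HIST2H2BE promoter: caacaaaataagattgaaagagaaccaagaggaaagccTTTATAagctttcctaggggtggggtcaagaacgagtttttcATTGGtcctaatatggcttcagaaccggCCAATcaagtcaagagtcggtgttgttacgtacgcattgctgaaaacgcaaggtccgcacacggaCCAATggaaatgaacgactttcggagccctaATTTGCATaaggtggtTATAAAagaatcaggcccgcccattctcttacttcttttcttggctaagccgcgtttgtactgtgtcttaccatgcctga
HIST1H2BJ promoter: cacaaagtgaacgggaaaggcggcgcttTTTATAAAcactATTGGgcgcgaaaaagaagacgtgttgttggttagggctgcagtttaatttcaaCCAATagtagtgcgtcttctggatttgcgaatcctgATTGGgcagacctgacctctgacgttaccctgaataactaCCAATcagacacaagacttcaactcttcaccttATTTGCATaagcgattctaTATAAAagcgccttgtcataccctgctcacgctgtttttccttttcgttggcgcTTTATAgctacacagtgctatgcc
HIST4H4 promoter: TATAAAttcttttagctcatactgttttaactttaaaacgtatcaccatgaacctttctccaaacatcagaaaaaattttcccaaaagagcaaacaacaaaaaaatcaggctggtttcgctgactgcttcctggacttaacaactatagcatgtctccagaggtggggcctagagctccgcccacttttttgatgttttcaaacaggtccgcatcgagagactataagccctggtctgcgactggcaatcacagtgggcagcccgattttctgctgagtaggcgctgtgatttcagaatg

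HIST2H2BE and HIST1H2BJ each hold the octamer once and both other motifs, and HIST4H4 holds TATAAA once, at the far end of the window. The octamer was present in 24 of 61 member promoters (39.3%) against 1.77% of 35116 promoters of the same length. All 24 belonged to H2A (10 of 14) or H2B (14 of 18). CCAAT was present in 51 of 61 (83.6%, against 34.6% of all promoters), in all promoters of H1, H2A, H2B and H3 that were matched and in 2 of 12 of H4. TATAAA was present in 42 of 61 (68.9%, against 11.5%). Some H2A and H2B members start head to head, so that their windows overlap, as those of HIST1H2AG and HIST1H2BJ do. Both strands were searched, so the same match can count for both genes, and these shares are not of separate stretches. The motif matches are descriptions of the letters.

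Members differed widely in level. The 12 highest took 61.2% of the mean summed level of the members, 25 members had a mean of at least 10 CPM, and 18 had a mean under 1 CPM. Per kilobase of exon, the mean over all 16 libraries was 121 CPM for HIST1H2BK (H2B), 120 for HIST1H1C and 118 for HIST1H1E (both linker histones), 98.8 for HIST2H2AC (H2A), 72.9 for HIST1H3B (H3) and 64.5 for HIST1H4C (H4). The leading 3 lie close together in this order, and HIST1H2BK shares 74.1% of its 50-base windows with another gene, so its level is uncertain. The genes named here have models of 381 to 754 bases of exon, and a longer model lowers the value. HIST1H2AC, with a mean of 86.1 CPM over 1668 bases, was at 51.6. The order thus depends in part on where the models end. After a filter on low counts 56 members were tested (H1 3, H2A 13, H2B 18, H3 10, H4 12) among 22553 genes. The 16 others had between 1 and 115 counts over the 16 libraries together, 9 of them under 10. The testis genes HIST1H1T, HIST1H2AA, HIST1H2BA and HIST3H3 were all among these, with 51, 2, 3 and 13 counts.

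In both lines DHT lowered the RNA of many tested members and raised that of a smaller group. In Vc 29 of 56 (51.8%) were lower and 7 (12.5%) higher at an adjusted p under 0.05, where 22.5% of all genes tested were lower and 21.8% higher. In Ver 26 (46.4%) were lower and 9 (16.1%) higher, against 22.9% and 21.2%. The median log2 change of the members was -0.53 in Vc and -0.49 in Ver, and that of all genes -0.04 in both. The lines have separate controls: 24 members were lower in both, which is 82.8% of those lower in Vc and 92.3% of those lower in Ver, and 6 were higher in both, 85.7% and 66.7%. No member was higher in one line and lower in the other. The same overlap was not computed over all genes tested, so it is not shown to be particular to the members. In such bulk samples fewer cells in S phase and less RNA per cell cannot be told apart.

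**Figure D1:**
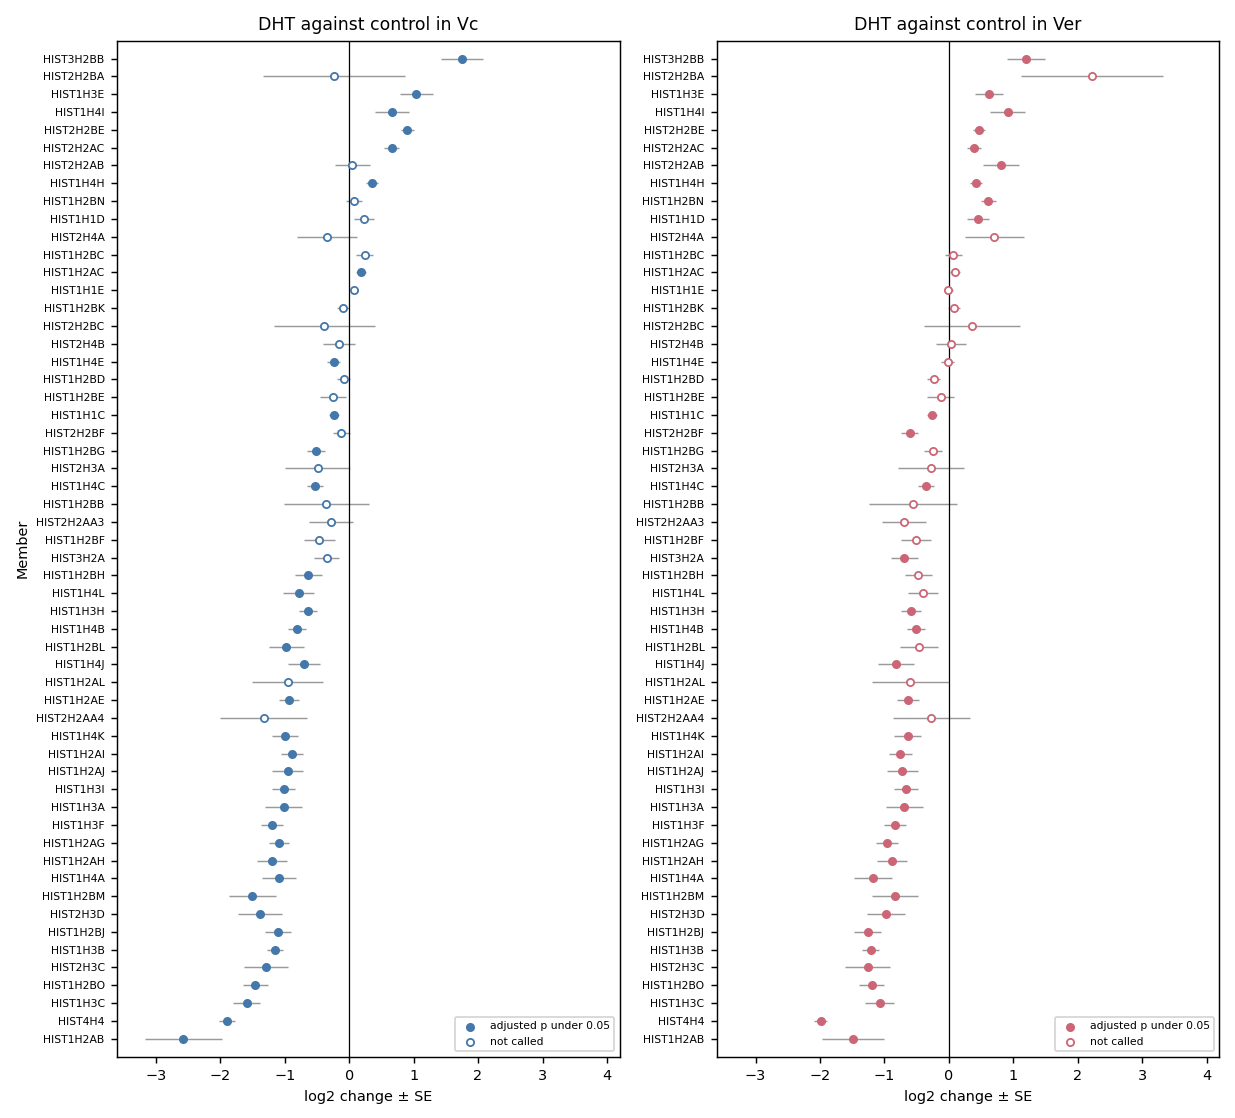
Log2 change with DHT against control for the 56 tested members in Vc (left) and Ver (right), with standard errors (2 libraries per group). Filled points had an adjusted p under 0.05. HIST4H4 and HIST1H2AB lie at the low end in both lines, and HIST3H2BB is the highest of the called members. HIST2H2BA, not called, has wide errors at a mean of 0.428 CPM.

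Most members that were lower with DHT are core histone genes of the HIST1 cluster. H3 genes were lower in 8 of 10 tested members in each line, and their summed level went from 122.9 and 150 CPM in the Vc control libraries to 71.93 and 69.41 with DHT, and from 108.9 and 122.9 to 72.59 and 69.02 in Ver. H4 genes were lower in 8 of 12 (Vc) and 6 of 12 (Ver). H2A genes were lower in 6 and 7 of 13. H2B genes were lower in 6 and 4 of 18, and their summed level hardly moved, with means of 278 and 266.2 CPM in Vc and 288.3 and 283.4 in Ver. Of the 3 linker genes tested HIST1H1C was lower in both lines, HIST1H1D higher in Ver, and HIST1H1E in neither. By cluster, 26 of 40 HIST1 members were lower in Vc and 21 in Ver, against 2 and 3 of 13 HIST2 members. Over 50% of the 50-base windows of 17 members are shared with another gene. HIST1H4K (100%), HIST1H4J (81.2%), HIST1H2AJ (83.7%) and HIST1H2AI (62.3%) are among them and were called lower in both lines. Which copy gave such reads is uncertain, so these counts need not be of separate genes.

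**Figure D2:**
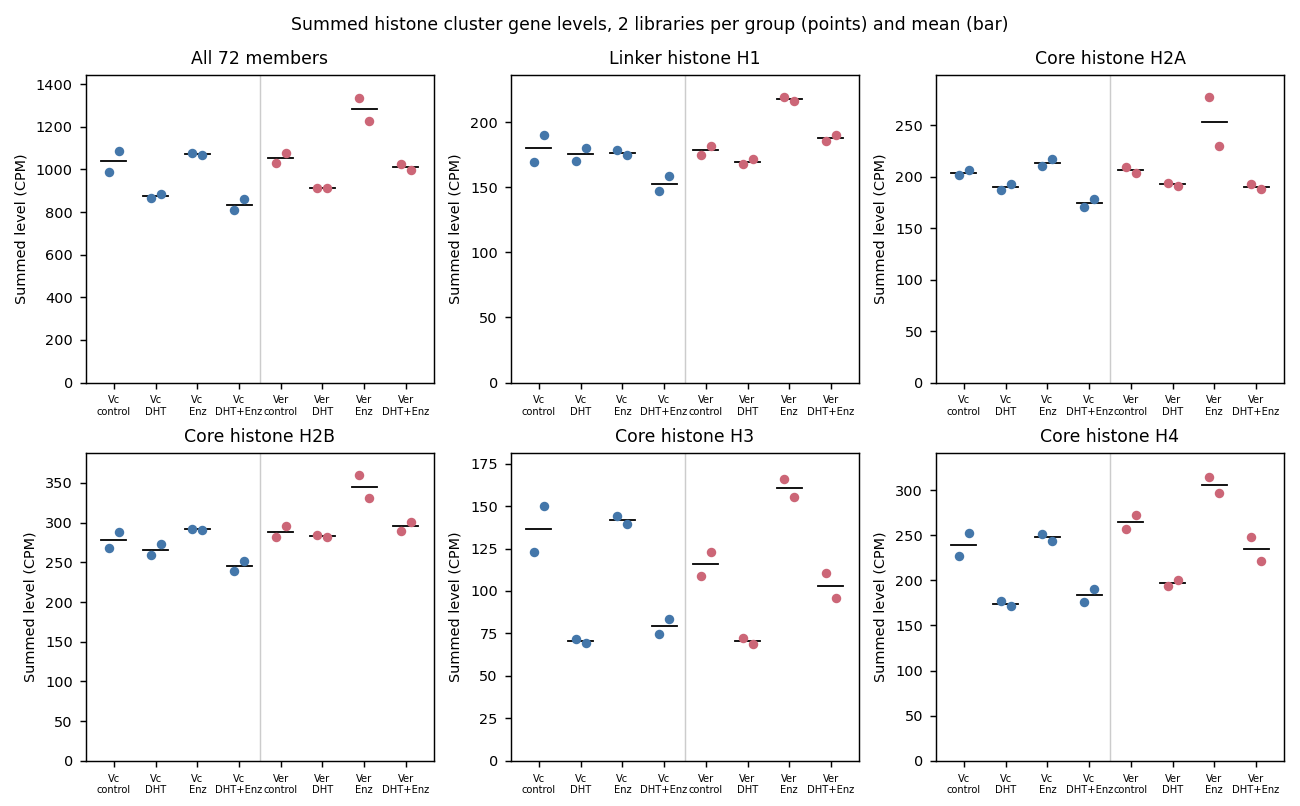
Summed level (CPM) of all members and of each histone type in the 16 libraries; points are libraries, bars the mean of the 2 libraries of a group, blue Vc and red Ver. H3 and H4 sums are low in every library with DHT alone and in the Vc libraries with both compounds. The mean of every sum is highest in Ver with enzalutamide alone.

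Because the libraries hold polyadenylated RNA, RNAs without a poly(A) tail were summed as well, from lists chosen after the data were seen. The 2901 annotated snRNA, snoRNA and scaRNA genes summed to means of 5140 CPM (Vc control), 4950 (Vc with DHT), 4410 (Ver control) and 4010 (Ver with DHT). The libraries with and without DHT overlap in each line. A list of 13 RNAs, nearly all of it the signal recognition particle gene RN7SL2, had means of 19100 CPM in Vc control against 24900 with DHT, and 19700 against 23500 in Ver. Their part in the members' fall was not tested. Members whose models run over 100 bases past the stem loop were lower with DHT in 7 of 18 (Vc) and 6 of 18 (Ver), and the others in 22 and 20 of 38.

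HIST4H4, an H4 gene outside the large clusters that is also known from polyadenylated transcripts, had the fall with the smallest adjusted p. Its level was 47.1 and 50.5 CPM in the Vc control libraries and 11.2 and 15.1 with DHT, and 81.8 and 88.7 against 21.3 and 21.7 in Ver. The libraries with and without DHT were far apart in each line. In Vc DHT changed it by -1.90 on the log2 scale (SE 0.12, adjusted p = 2.8e-33). The Ver value was -1.99, with an SE of 0.10 and an adjusted p of 1.09e-39.

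HIST1H3B encodes the canonical H3.1 protein. The Vc control libraries held 37.6 and 47.2 CPM and those with DHT 20.8 and 17, and in Ver 29.6 and 33.3 stood against 12.3 and 14.9. No DHT library reached a control library of its line, and the log2 change was -1.16 (SE 0.12, adjusted p = 8.16e-16) and -1.21 (SE 0.13, adjusted p = 5.07e-15). HIST1H3C, another H3.1 gene, changed by -1.59 in Vc (12.2 and 17.1 to 4.68 and 4.98 CPM) and by -1.07 in Ver (9.6 and 11.2 to 5.8 and 4.06 CPM). HIST1H4C, an H4 gene, had log2 changes of -0.54 and -0.35, and its call in Ver is lost with DESeq2 (adjusted p = 0.0592), without replicate 1 of the Ver control (0.141) and without replicate 1 of DHT (0.0945).

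Lower members of H2A and H2B included several at few counts. HIST1H2AB went from 2.62 and 2.38 CPM to 0.328 and 0.508 in Vc, a log2 change of -2.58 (SE 0.60) on very few reads, and from 2.42 and 2.68 to 0.981 and 0.83 in Ver (-1.48, SE 0.48). HIST1H2BO went from 14.6 and 16.3 to 5.83 and 5.39 CPM in Vc and from 14.1 and 11.8 to 6.42 and 4.8 in Ver. HIST1H2BM, at few reads too, fell from 4.08 and 5.1 CPM in the Vc control libraries to 1.07 and 2.24, and was at 3.49 in both Ver control libraries against 2.05 and 1.85. The H3 genes HIST2H3D (log2 change -1.38 in Vc and -0.98 in Ver) and HIST2H3C (-1.29 and -1.26) share 80.4% and 100% of their windows with other genes, so which copy gave the reads is uncertain. Without replicate 2 of the control of the line, HIST2H3D in Vc was at -0.86 (adjusted p = 0.0889) and HIST2H3C in Ver at -0.79 (0.158). HIST1H2AB in Ver lost its call without replicate 2 of DHT (0.0542).

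The 6 members that rose in both lines were HIST2H2BE, HIST2H2AC and HIST3H2BB of the small clusters and HIST1H3E, HIST1H4H and HIST1H4I of HIST1. HIST2H2BE, an H2B gene known to make a polyadenylated form, went from 27.4 and 29.1 CPM to 52.6 and 52.8 in Vc and from 42.1 and 39.9 to 56.9 and 56.5 in Ver. The ranges do not meet, and the log2 rise was 0.90 (SE 0.099, adjusted p = 6.61e-15) and 0.47 (SE 0.096, adjusted p = 1.29e-05). HIST3H2BB, an H2B gene of the HIST3 cluster, rose from 1.85 and 1.53 CPM to 4.76 and 6.81 in Vc (log2 change 1.75, SE 0.33) and from 3.59 and 2.95 to 9.1 and 5.91 in Ver (1.20, SE 0.29). HIST1H3E (H3) rose by 1.04 and 0.63, HIST1H4I (H4) by 0.66 and 0.91 and HIST1H4H (H4) by 0.35 and 0.43. In Vc the call of HIST1H4I is lost with DESeq2 (adjusted p = 0.082) and without replicate 1 of the control (0.222), replicate 1 of DHT (0.112) or replicate 2 of DHT (0.0863). The call of HIST1H4H in Vc is lost without replicate 1 of the control (0.0814) or of DHT (0.099). In Ver the call of HIST1H3E is lost with DESeq2 (0.0555) and without replicate 2 of the control (0.106) or replicate 1 of DHT (0.101). HIST1H2BN rose by 0.61 and HIST2H2AB by 0.81 in Ver, with 0.07 and 0.05 in Vc, where neither was called. The HIST2H2AB call is lost with DESeq2 (adjusted p = 0.0719) and without replicate 2 of the Ver control (0.136). HIST1H2BN overlaps HIST1H2AL and HIST1H2AK in its exons and HIST2H2AB overlaps BOLA1. The deposited column names end in union.no, which may mean that strand was not used in counting. Reads ambiguous between genes were left out of the counts, so the levels of such overlapping members are uncertain. In Vc HIST1H2AC rose by 0.19 (adjusted p = 0.0325). This call is lost with DESeq2 (adjusted p = 0.117) and without replicate 2 of the control (0.169) or replicate 1 of DHT (0.223). HIST1H4E, an H4 gene, was lower in Vc by -0.24, close to the threshold (adjusted p = 0.0493), and lost its call with DESeq2 (0.156) and without any 1 of the 4 libraries (0.0979 to 0.213). HIST2H2BF, an H2B gene that overlaps FCGR1A, had log2 changes of -0.61 in Ver, called lower, and -0.12 in Vc, not called.

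**Figure D3:**
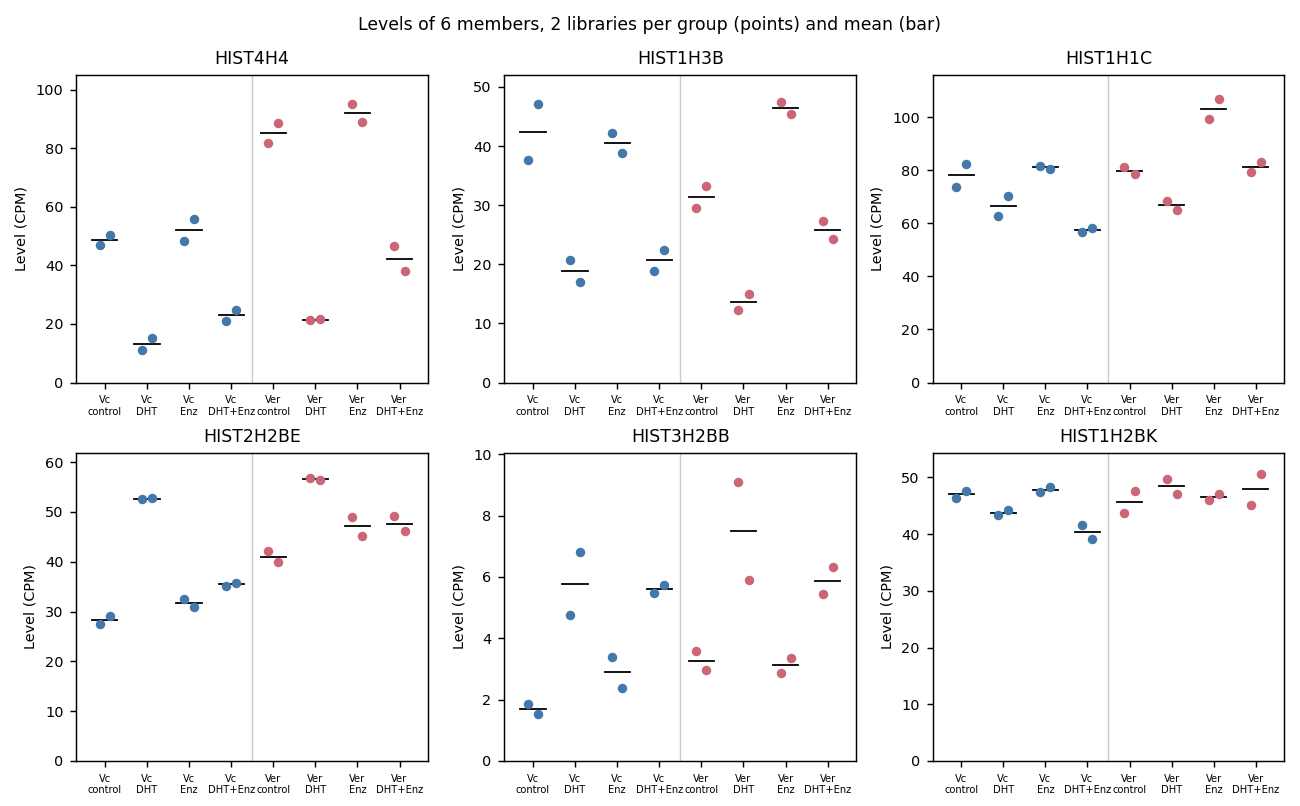
Level (CPM) of 6 members in the 16 libraries; points are libraries, bars the mean of the 2 libraries of a group, blue Vc and red Ver. HIST4H4 and HIST1H3B are low with DHT, HIST2H2BE and HIST3H2BB high, and HIST1H2BK stays between 39.2 and 50.7 CPM. HIST1H2BK shares 74.1% of its 50-base windows with another gene, so its level is uncertain.

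Among the 12 pairs of members that start head to head within 1000 bases, both members were tested in 8. Both were lower in 4 pairs in Vc and 2 in Ver, and both were higher in 1 pair in each line. Of all 56 tested members 29 were lower in Vc and 26 in Ver, and pairs without this arrangement were not counted. The higher pair is HIST2H2BE with HIST2H2AC, 322 bases apart, where HIST2H2AC went from 33.2 and 29.4 CPM to 44.4 and 54.8 in Vc and from 34.8 and 36.3 to 47.4 and 45.7 in Ver. HIST1H2BJ and HIST1H2AG, 291 bases apart, both fell, with log2 changes of -1.10 and -1.26 for HIST1H2BJ and -1.09 and -0.96 for HIST1H2AG. HIST3H2BB and HIST3H2A, 233 bases apart, went opposite ways in Ver, where HIST3H2A fell by 0.69 (SE 0.21, adjusted p = 0.00319). This call is lost without replicate 1 of DHT (log2 change -0.39, adjusted p = 0.212) and without replicate 1 of the Ver control (-0.57, 0.0652), and with it the one opposite pair. HIST1H2BK was called in no comparison, with log2 changes of -0.10 and 0.08 with DHT, while its partner HIST1H2AH fell: the Vc libraries held 10.1 and 9.77 CPM without and 4.27 and 4.37 with DHT, and the Ver libraries 8.53 and 8.41 against 5.26 and 3.88. HIST1H2BK shares 74.1% of its 50-base windows with another gene and HIST1H2AH 3.85%, so which gene gave the reads of HIST1H2BK is uncertain.

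A list of 9 members was fixed as genes known to make polyadenylated transcripts too: HIST1H1C, HIST1H2AC, HIST1H2BC, HIST1H2BD, HIST1H2BJ, HIST1H2BK, HIST2H2BE, HIST3H2A and HIST4H4. With DHT 3 were lower and 2 higher in Vc, and 4 lower and 1 higher in Ver (HIST4H4 and HIST2H2BE lie on opposite sides). Its median log2 change was -0.10 and -0.24. HIST1H1C fell slightly (-0.23 and -0.26), and in Vc it was at -0.14 (adjusted p = 0.252) without replicate 2 of the control and at -0.15 (0.238) without replicate 1 of DHT. HIST1H2BC had log2 changes of 0.24 and 0.07 and HIST1H2BD of -0.09 and -0.24, none of them called.

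Lists of genes that act with the members were read the same way, where 44.3% of all genes were called in Vc and 44.1% in Ver. Of 18 S-phase genes 15 were lower in Vc and 16 in Ver, and 1 was higher in Ver (CDC6, log2 change 0.44). The list's median was -1.39 and -1.43, beyond that of the members. MCM2, MCM4, MCM5 and MCM6, subunits of the replicative helicase, had log2 changes of -2.31, -2.01, -2.27 and -2.25 in Vc. Of 20 histone chaperone genes 12 were lower and 4 higher in Vc, and 11 and 4 in Ver. CHAF1A, a subunit of the assembly factor CAF-1, went from a mean of 40.7 to 15.6 CPM in Vc, and NAP1L1 from 553 to 287. SUPT16H, a subunit of FACT, fell by 0.71 in Vc, while CABIN1, of the HIRA complex, rose by 0.57.

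Of 20 genes for the transcription and 3' processing of histone mRNA, 6 were lower and 3 higher in Vc, and 7 and 3 in Ver, near the share of all genes called, with medians of -0.08 and -0.03. LSM11, a U7 snRNP protein, fell in both lines, with control means of 8.02 CPM (Vc) and 7.54 (Ver) and DHT means of 3.03 and 2.03. NPAT fell (-0.64 and -0.41), and so did SLBP (-0.34 and -0.29). NCBP2, of the cap-binding complex, fell by 0.54 in Vc. ZNF473, the zinc finger protein that stabilizes U7 snRNP on the pre-mRNA, rose by 0.91 and 0.33. Of 11 replacement and variant genes outside the clusters 5 were higher and 4 lower in each line. H1F0, the replacement linker histone, rose in both lines, with means of 274 CPM in Vc control, 704 in Vc with DHT, 224 in Ver control and 517 in Ver with DHT. H2AFV rose by 0.42 and 0.37. H2AFY2, a macroH2A gene, fell (-1.10 and -1.21), as did H2AFJ (-0.75 and -0.95).

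A test of whether DHT acted differently in Ver than in Vc called 0 of 56 members with edgeR (4 had an unadjusted p under 0.05) and 0 with DESeq2, which gave an adjusted p to 36 of the 72 members, where 0.891% of all genes were higher and 1.43% lower (2.32% in all). A p that misses the threshold does not show that the responses are alike.

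Enzalutamide without androgen called no member in Vc: 0 of 56 with edgeR, and 3 at an unadjusted p under 0.05. DESeq2 gave an adjusted p to only 3 members there, so its count of 0 says nothing about the others. In that comparison 0.155% of all genes were higher and 0.381% lower, 0.537% in all. In Ver it raised 7 members and lowered none, against 0.470% of all genes higher and 0.661% lower (1.13% in all). A further 44 members had a positive log2 change without a call, and the median of the 56 was 0.32 where that of all genes was -0.01. The summed level was 1031 and 1076 CPM in the Ver control libraries and 1337 and 1229 with enzalutamide, so the 2 pairs do not meet. In Vc the same sums were 988.8 and 1086 against 1076 and 1066, which overlap.

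The 7 were HIST1H3C, HIST1H3H, HIST1H3B, HIST1H2BG, HIST1H4C, HIST1H1C and HIST1H2AC. HIST1H1C went from 81.3 and 78.5 CPM to 99.2 and 107 (log2 change 0.37, SE 0.074, adjusted p = 0.000643). HIST1H3B went from 29.6 and 33.3 to 47.4 and 45.4 (0.56, adjusted p = 0.00127). HIST1H3C rose by 0.78, HIST1H3H by 0.57, HIST1H2BG by 0.56 and HIST1H4C by 0.50. Each of the 7 lost its call without some library. HIST1H2BG did so without any 1 of the 4 (adjusted p 0.0663 to 0.137). HIST1H3C (0.189 and 0.204) and HIST1H3H (0.347 and 0.231) did so without replicate 1 of the control or of enzalutamide, and HIST1H3C with DESeq2 too (0.0569). HIST1H4C (0.239 and 0.18) and HIST1H1C (0.0525 and 0.0844) did so without replicate 2 of either group, and HIST1H3B without replicate 1 of the control (0.0849). For HIST1H2AC the rise of 0.28 rests on 1 library: without replicate 1 of the enzalutamide group it is 0.09 (adjusted p = 0.882). It is also lost without replicate 2 of the control (0.442) and with DESeq2 (0.113). Of the S-phase list none was called in Ver (median -0.06, and 1 gene at an unadjusted p under 0.05). The count of called members was 3 without either of the Ver control libraries and 3 without replicate 1 of the enzalutamide group. A test of the difference between the lines, added after these counts were seen, called 0 of 56 members with edgeR (12 at an unadjusted p under 0.05, 0 with DESeq2), where 0.0222% of all genes were called, all of them lower in Ver, so the effect is not shown to differ between them.

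Enzalutamide added to DHT raised 16 members and lowered 1 in Ver, against 13.7% and 13.2% of all genes (26.9% in all), and raised 2 and lowered 4 in Vc, against 11.5% and 11.0%. The members' median log2 change was 0.31 in Ver and 0.05 in Vc. In Ver 6 of 10 H3 members were higher. The summed H3 level was 72.59 and 69.02 CPM with DHT and 110.5 and 95.8 with both compounds in Ver, and 71.93 and 69.41 against 74.88 and 83.77 in Vc. The groups do not overlap in either line. The S-phase list was raised in both lines, 12 of 18 in Ver and 9 of 18 in Vc, with medians of 0.58 and 0.46. The Ver count of members is smaller without some libraries, at 5 without replicate 1 of DHT plus enzalutamide and 9 without replicate 2 of DHT.

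HIST4H4 was higher with both compounds than with DHT alone in each line, by 0.81 in Vc (11.2 and 15.1 CPM to 20.9 and 24.9) and by 0.98 in Ver (21.3 and 21.7 to 46.6 and 38). HIST2H2BE, which DHT raised, was lower with both compounds, by -0.57 in Vc (adjusted p = 4.56e-07) and -0.25 in Ver (adjusted p = 0.0386, lost without any 1 of the 4 libraries, 0.0752 to 0.241). Its partner HIST2H2AC was lower in Vc (-0.35) with -0.27 in Ver, not called there. The Vc value was -0.20 (adjusted p = 0.345) without replicate 2 of DHT and -0.31 (0.0985) without replicate 1 of both compounds. In Vc HIST1H2BF was higher by 0.66, a call lost with DESeq2 (adjusted p = 0.0851) and without any 1 of the 4 libraries (0.0927 to 0.173). HIST1H1E was lower by -0.21, with -0.11 (0.491) without replicate 1 of both compounds, and its call is also lost without either DHT library (0.102 and 0.125). In Ver HIST1H3B rose by 0.93, HIST2H3D by 0.87, HIST1H4A by 0.81, HIST1H3C by 0.77 and HIST1H2BO by 0.66. With DESeq2 the calls of HIST2H3D (adjusted p = 0.0732), HIST1H4A (0.105) and HIST1H2BO (0.0541) are lost. Without replicate 1 of both compounds HIST2H3D was at 0.55 (0.372), HIST1H3C at 0.64 (0.0972) and HIST1H2BO at 0.58 (0.113). HIST2H3D is also lost without replicate 1 of DHT (0.151), HIST1H3C (0.139) and HIST1H2BO (0.199) without replicate 2 of DHT, and HIST1H4A without any 1 of the 4 libraries (0.107 to 0.131).

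HIST1H1C and HIST1H3B differed between the lines in the test of the difference itself, where 0.638% of all genes were called higher in Ver and 1.29% in either direction. The linker gene HIST1H1C went from 62.8 and 70.2 CPM with DHT to 56.7 and 58.1 with both compounds in Vc, and from 68.4 and 65.2 to 79.4 and 83.1 in Ver. The change was -0.21 (SE 0.078) in Vc and 0.28 (SE 0.077) in Ver, opposite in sign, and the difference 0.49 (SE 0.11, adjusted p = 0.00364). HIST1H3B went from 20.8 and 17 to 18.8 and 22.5 CPM in Vc, which overlap, and from 12.3 and 14.9 to 27.4 and 24.2 in Ver, which do not. Its difference was 0.81 (SE 0.19, adjusted p = 0.00673). Both rest on single libraries in part. The Vc change of HIST1H1C was -0.13 (adjusted p = 0.445) without replicate 2 of DHT, and its call is also lost without either library of both compounds (0.193 and 0.0976) and with DESeq2 (0.0596). The HIST1H1C difference was 0.41 (adjusted p = 0.0878) without replicate 2 of DHT in Vc. That of HIST1H3B lost its call without replicate 1 of DHT in Vc (0.65, adjusted p = 0.157), of both compounds in Vc (0.69, adjusted p = 0.119), of DHT in Ver (0.68, adjusted p = 0.065) or of both compounds in Ver (0.72, adjusted p = 0.0878).

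**Figure D4:**
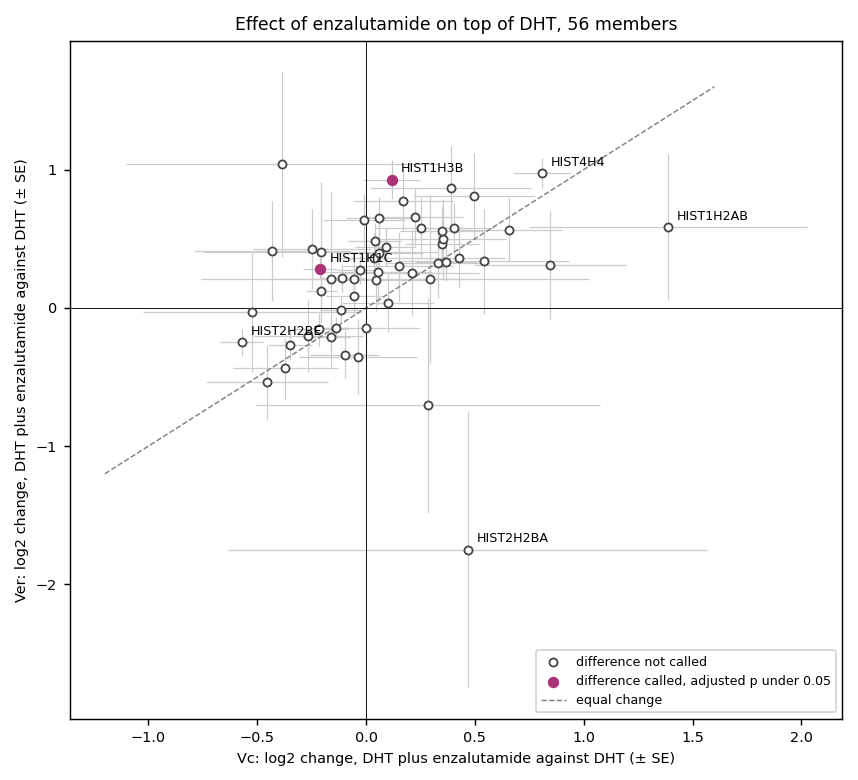
Log2 change of the 56 tested members from DHT to DHT plus enzalutamide, Vc on the horizontal and Ver on the vertical axis, with standard errors (2 libraries per group). Filled points are HIST1H1C and HIST1H3B, the members whose change differed between the lines at an adjusted p under 0.05, and the dashed line marks equal change.

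With both compounds against control, 26 members were lower and 4 higher in Vc, against 13.2% and 15.3% of all genes, and 6 were lower and 2 higher in Ver, against 10.3% and 12.4%. The medians were -0.57 and -0.11. In Vc the largest falls were those of HIST1H3C (log2 change -1.43), HIST1H2BO (-1.23), HIST1H2AB (-1.19), HIST4H4 (-1.09), HIST1H2AG (-1.05) and HIST1H3B (-1.04). The 4 higher members were HIST3H2BB (1.72), HIST1H3E (0.67), HIST2H2BE (0.33) and HIST2H2AC (0.31). Of these, HIST1H3E lost its call with DESeq2 (adjusted p = 0.0984) and without any 1 of the 4 libraries (0.0652 to 0.214), HIST2H2AC with DESeq2 (0.122) and without replicate 2 of the control (0.236) or of both compounds (0.158), and HIST2H2BE without replicate 1 of the control (0.0928). Among the falls, HIST1H2AB lost its call with DESeq2 (0.0912) and without any 1 of the 4 libraries (0.078 to 0.141). In Ver HIST4H4 had a log2 change of -1.01, HIST2H3C -0.95, HIST1H2BJ -0.68, HIST1H2AG -0.59, HIST1H2BO -0.54 and HIST2H2BF -0.40. HIST3H2BB (0.85) and HIST1H2BN (0.46) were higher there. With DESeq2 the calls of HIST2H3C (adjusted p = 0.125), HIST1H2BO (0.108), HIST2H2BF (0.0938) and HIST3H2BB (0.097) are lost. Without replicate 2 of the Ver control HIST2H3C was at -0.48 (0.545), HIST1H2BJ at -0.56 (0.106), HIST2H2BF at -0.36 (0.121) and HIST3H2BB at 0.71 (0.195). Without its replicate 1 HIST1H2BO was at -0.40 (0.271), HIST2H2BF at -0.42 (0.0523) and HIST1H2BN at 0.38 (0.0709). Without replicate 1 of both compounds HIST2H2BF was at -0.24 (0.344), HIST2H3C at -0.91 (0.138) and HIST1H2BO at -0.61 (0.0635). Without their replicate 2 HIST1H2BJ was at -0.41 (0.29), HIST1H2BO at -0.47 (0.194), HIST2H3C at -0.98 (0.115), HIST3H2BB at 0.74 (0.18) and HIST1H2BN at 0.40 (0.0612). The S-phase list was lower in 13 of 18 in Vc and 15 of 18 in Ver, so in Ver its count and that of the members went apart. The Vc count was 18 without replicate 2 of the Vc control. The Ver count was 5 or 4 without replicate 1 or 2 of the Ver control and 5 or 3 without replicate 1 or 2 of both compounds.

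Between the lines in control medium 4 members were higher in Ver and 2 lower, against 9.13% and 9.73% of all genes (18.9% in all). HIST4H4 was higher by 0.81 (SE 0.092), HIST2H2BE by 0.54, HIST1H3E by 1.12 and HIST3H2BB by 0.94. HIST1H3B was lower by -0.43 and HIST1H3C by -0.49. Without replicate 2 of the Vc control these were -0.25 (adjusted p = 0.271) and -0.22 (0.634), and without replicate 1 of the Ver control -0.35 (0.0886) and -0.38 (0.302). HIST1H3C is also lost without replicate 2 of the Ver control (0.0832), with DESeq2 (0.169) and with RLE scaling (0.0505). HIST3H2BB lost its call with DESeq2 (0.0875) and without any 1 of the 4 libraries (0.0651 to 0.23). With DHT 3 were higher and 1 lower, against 7.90% and 9.37%: HIST4H4 (0.72), HIST1H3E (0.70), HIST1H2BN (0.43) and, lower, HIST1H3B (-0.48). Without replicate 1 of DHT in Vc the calls of HIST1H3E (0.50, adjusted p = 0.275), HIST1H2BN (0.37, 0.105) and HIST1H3B (-0.32, 0.26) are lost. HIST1H3E (0.62, 0.134) and HIST1H3B (-0.35, 0.182) are also lost without replicate 1 of DHT in Ver, and HIST1H2BN (0.40, 0.0511) without replicate 2. With enzalutamide alone 10 were higher and none lower, against 7.88% and 8.69% (DESeq2 also called none lower). With both compounds 12 were higher and none lower, against 9.28% and 11.0% (20.3% in all), with HIST2H3D highest at 1.33 (1.01 and an adjusted p of 0.0685 without replicate 1 of both compounds in Ver).

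HIST4H4, HIST1H3E and HIST2H2BE recur in these lists. HIST4H4 was higher in Ver under all 4 treatments, by 0.81, 0.72, 0.82 and 0.89, and no Ver library overlapped a Vc library of the same treatment. H2AFJ, a variant H2A gene that lies near HIST4H4 on chromosome 12, was higher by 0.86, 0.66, 0.84 and 0.70. Within 2 Mb of HIST4H4 29 genes were tested, of which 13 were higher in Ver and 1 lower in control medium, with a median log2 difference of 0.51. Between 10 and 18 were higher under the 4 treatments. The part of these neighbours' difference in that of HIST4H4 was not tested. HIST1H3E was higher in Ver in control medium (3.62 and 3.06 CPM in Vc, 7.66 and 6.89 in Ver) and was called with each treatment. With both compounds its call is lost with DESeq2 (adjusted p = 0.0928) and without any 1 of the 4 libraries (0.0916 to 0.199), and with enzalutamide without replicate 2 of either line (0.0546 for Vc, 0.119 for Ver). HIST2H2BE was called higher under control medium, enzalutamide and both compounds, and not with DHT alone.

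Single libraries carry several of these counts between the lines. The control count was 3 without replicate 2 of the Vc control or without replicate 1 of the Ver control. The DHT count was 1 without replicate 1 of DHT in Vc and 2 without replicate 1 of DHT in Ver. The enzalutamide count was 5 without replicate 1 of enzalutamide in Ver, and the count with both compounds was 5 without replicate 1 of both compounds in Vc. HIST1H3C was at 0.56 with enzalutamide and at 0.64 with both compounds, and neither call holds with DESeq2 (adjusted p = 0.0832 and 0.0673).

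The genes whose mean level over the 8 groups was most like the summed level of the members were INTS2 (Pearson r = 0.989), a subunit of the Integrator complex, SH2B1 (0.968), FBXL20 (0.962), HACE1 (0.962), DOCK2 (0.961), APC2 (0.959), LRRC37A3 (0.955), MYO5B (0.954), SLC13A4 (0.953) and B4GALT6 (0.952). They are those with the highest r over 8 group means, among genes with a mean of at least 5 CPM, and the value is a description over groups that share libraries' depth. INTS2 had a mean of 16.9 CPM in Vc control, 14 with DHT, 21.2 in Ver with enzalutamide and 16.6 in Ver with both compounds.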

How the data were processed

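Tools listed in the submitters' processing notes are HISAT2, SAMtools, HTSeq 0.11.1, Trimmomatic 0.36-5 and FastQC 0.11.7, with the build GRCh38. The authors deposited whole read counts per gene for each library, and a table of normalized counts (signal). That deposited signal equals the counts divided by DESeq2 size factors, to a relative difference of at most 4.9e-10. Strand use in counting is not spelled out in the sources used here. The deposited column names end in union.no, which may mean that strand was not used. Members were found by name in the normalized table and followed by gene ID in the counts. Between 45% and 50.6% of a library's reads fell in no gene and stayed out. A further 7.09% to 8.55% were ambiguous between genes and stayed out too. CPM are counts scaled to a common library size with TMM factors. Tests were edgeR 4.0.16 quasi-likelihood tests in R 4.3.3 over all 16 libraries and 22553 genes kept by filterByExpr, with Benjamini-Hochberg adjustment over those genes and a threshold of 0.05 (biological coefficient of variation 6.01%, 8 residual degrees of freedom). They were tested on simulated data for DHT against control in Vc only, with the same coefficient of variation for every gene. Log2 changes are those of the fit, with SE. Precision is limited by 2 libraries per group. Alternatives were RLE scaling, other filters, DESeq2 1.42.0, smaller fits, a replicate block and leaving out libraries. Named genes were the 12 members of highest level, the 6 largest rises and 6 largest falls per comparison at a mean of at least 1 CPM, members in counts of 5 or fewer, the polyadenylated list, 4 genes per other list and 10 like genes. Members and lists were chosen with earlier results of these data known. The test of enzalutamide alone between the lines, the list of RNAs without a poly(A) tail and the count of shared 50-base windows were added after seeing the data. Replicate numbers were not used to pair the samples in the main fit, and all per-sample columns were used. Some marker genes are not reported here.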

Additional observations from a re-analysis of the deposited data

Results flagged for a closer look

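Where enzalutamide was added to DHT, the effect on HIST1H1C differed between the lines by 0.49 on the log2 scale (Ver minus Vc, edgeR adjusted p = 0.00364), and that on HIST1H3B by 0.81 (adjusted p = 0.00673). Both are drawn from 2 libraries per group, and the report gives the libraries without which each call is lost.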

How the results depend on the processing

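Each count of called members was recomputed under other scaling, filters, tools and fits, and no result changed sign. RLE scaling moved medians by at most 0.021 on the log2 scale. With DESeq2 the count was 11 for enzalutamide on top of DHT in Ver and 4 for both compounds against control in Ver. It was 1 for the difference in the effect of enzalutamide on top of DHT. There DESeq2 gave an adjusted p to only 3 members. HIST1H1C was among these 3 and was called, and HIST1H3B was not among them. Fitting only the groups of the contrast called 2 members for the difference in enzalutamide alone. Leaving out members that overlap another gene gave 5 for both compounds in Ver. The summed level with DHT in Ver was 922.8 CPM under RLE scaling. Of 114 named gene results, 32 lost their call under some tool, scaling, filter or fit and 64 without some library. DESeq2 gave no adjusted p for up to 53 of the 56 tested members, the most for enzalutamide on top of DHT between the lines and for enzalutamide against control in Vc, so there its counts say little.

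Leaving out 1 library at a time gave 28 to 35 called members for DHT in Vc and 27 to 32 in Ver, 0 to 0 for enzalutamide in Vc and 3 to 7 in Ver, 3 to 5 for enzalutamide on top of DHT in Vc and 5 to 13 in Ver, and 18 to 25 for both compounds in Vc and 3 to 5 in Ver. Between the lines it gave 3 to 6 in control medium, 1 to 4 with DHT, 5 to 10 with enzalutamide and 5 to 11 with both compounds. The differences gave 0 to 0 for DHT, 0 to 0 for enzalutamide alone and 1 to 3 for enzalutamide on top of DHT. For enzalutamide on top of DHT in Vc the count was 3 without replicate 1 of both compounds or replicate 2 of DHT.

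With the replicate block the counts were those without it in all 15 comparisons (36 for DHT in Vc and 35 in Ver). Deviations of same-numbered libraries correlated between -0.0355 and 0.0335 over 28 pairs of groups, so no shared deviation was seen. These values cannot tell whether same-numbered libraries were handled together.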
